A study of Mus musculus with 2 samples.

Results

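Integrins are the receptors by which cells hold on to matrix, each built of 1 alpha and 1 beta subunit. In lung epithelium they anchor the cell to laminin of the basement membrane, and some of them bind the latent form of the growth factor TGF-beta and release its active form. The 10 genes described here are the integrin subunits listed as epithelial: the alpha subunits Itga1, Itga2, Itga3, Itga6 and Itgav and the beta subunits Itgb1, Itgb4, Itgb5, Itgb6 and Itgb8. They were chosen by symbol and not by a rule on their values, though earlier results of these data were known. In all, 15113 genes had a value in at least 1 library. Rows were found for 9 of the 10 in both libraries, while Itgb8 had no row in either and was taken as 0.

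The values come from 2 RNA libraries of mouse lung epithelial cells, sorted as negative for the leukocyte protein CD45 and positive for surfactant protein C (Sftpc), the product of alveolar type 2 (AT2) cells. The tumour-bearing library came from C57BL/6 mice aged 6 to 8 weeks with 1000000 luciferase-labelled LLC cells, a mouse lung carcinoma line, under the skin of the back, a model of spontaneous lung metastasis. The control library came from wild-type C57BL/6 mice of the same age without a tumour. The sources used here do not give how many mice stood behind a library or how Sftpc was detected. With 1 library a group, differences could not be checked in replicates, and no p-value was computed. Levels are in RPKM, reads scaled to gene length and to the library total. Intervals are exact, at 95%, and reflect counting error alone. Estimated library totals were 5387114 reads for the tumour-bearing and 5335352 reads for the control library.

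Markers of several cell types were read in both libraries, at levels that differed. Summed RPKM of 12 AT2 markers was 89638 in the tumour-bearing library and 128487 in the control library. The difference between these sums rested on Sftpc, since the other 11 summed to 34670 RPKM in the tumour-bearing library and 33585 RPKM in the control library. Sftpc was not the only AT2 marker that differed. By single gene, 8 of the 12 were lower in the tumour-bearing library and 4 higher, with a median log2 ratio of -0.27. The sum of 12 markers of the thin alveolar type 1 (AT1) cell was 3062 RPKM in the tumour-bearing library and 1877 RPKM in the control library. All 12 fibroblast markers were read in the tumour-bearing library, at a sum of 433 RPKM, against 27.4 RPKM in the control library, where 4 were at 0 (Lum, Tcf21, Meox2 and Pi16). The sum of 12 endothelial markers was 232 RPKM in the tumour-bearing library and 102 RPKM in the control library, with none at 0 in either. Without Esam, the other 11 summed to 160 RPKM in the tumour-bearing library and 34.4 RPKM in the control library. The log2 ratio was above 0 for 10 of the 12 and below 0 for 2, Kdr and Tek. Of 9 smooth muscle and pericyte markers, 5 were at 0 in the control library and none in the tumour-bearing library, and their sums were 15.5 and 3.82 RPKM in the tumour-bearing and control library. Club and ciliated markers summed to 36543 RPKM in the tumour-bearing library and 32375 RPKM in the control library, but without Scgb1a1 the other 7 summed to 1427 RPKM in the tumour-bearing library and 2233 RPKM in the control library. In the tumour-bearing and the control library, basal markers summed to 56 and 53.4 RPKM and mesothelial markers to 161 and 85.7 RPKM. Without Krt19, the other 5 mesothelial markers summed to 17.1 RPKM in the tumour-bearing library and 2.12 RPKM in the control library. Platelet markers, which include the integrin subunit Itga2b, summed to 5.71 RPKM in the tumour-bearing library and 2.09 RPKM in the control library. Of 15 leukocyte markers, 6 were at 0 in the tumour-bearing library and 7 in the control library, and without Lyz2, which AT2 cells also express, the other 14 summed to 42.4 RPKM in the tumour-bearing library and 14.5 RPKM in the control library. Cd68 alone, a macrophage marker, was at 31.5 RPKM in the tumour-bearing library and 7.81 RPKM in the control library, most of that sum. Of the 6 leukocyte markers that reached 1 RPKM, 3 had a log2 ratio above 0 and 3 below 0. Ptprc, which encodes CD45, had 2 reads in the tumour-bearing library and 12 in the control library. Cd68 had 171 and 42, and C1qb, a complement gene of macrophages, had 32 and 0. C1qa had 17 reads in the tumour-bearing library and 11 in the control library, Laptm5 9 and 19, and Coro1a 5 and 6. Mrc1 and Marco had no row. In such bulk RNA, fewer cells of a type cannot be told apart from less RNA per cell.

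The sequence before the start of 3 of the genes is shown because their levels compared differently: Itga3 and Itgb6 were higher in the tumour-bearing library, and Itgb1 was at the same level in both. Each run is the 250 bases before a transcript start of the RefSeq promoter table on GRCm38.p6, in the direction of transcription. Capitals mark matches, on either strand, to GGGCGG (the GC box of Sp1-type factors), CCGGAAG (an ETS-type motif), TGANTCA (the AP-1 motif) or TATAAA (the TATA box), and no marked matches overlap.
Itga3, chr11:95076715-95076964, minus strand: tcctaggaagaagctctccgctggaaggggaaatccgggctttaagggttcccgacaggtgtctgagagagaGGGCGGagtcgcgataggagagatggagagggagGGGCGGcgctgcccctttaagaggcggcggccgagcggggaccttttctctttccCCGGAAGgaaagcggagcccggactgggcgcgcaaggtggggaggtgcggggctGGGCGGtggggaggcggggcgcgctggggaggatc
Itgb6, chr2:60722604-60722853, minus strand: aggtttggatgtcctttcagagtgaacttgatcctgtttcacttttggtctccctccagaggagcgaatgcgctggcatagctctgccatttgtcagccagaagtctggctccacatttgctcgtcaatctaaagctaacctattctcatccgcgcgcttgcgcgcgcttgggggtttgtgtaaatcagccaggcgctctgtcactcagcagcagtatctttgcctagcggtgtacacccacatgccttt
Itgb1, chr8:128685404-128685653, plus strand: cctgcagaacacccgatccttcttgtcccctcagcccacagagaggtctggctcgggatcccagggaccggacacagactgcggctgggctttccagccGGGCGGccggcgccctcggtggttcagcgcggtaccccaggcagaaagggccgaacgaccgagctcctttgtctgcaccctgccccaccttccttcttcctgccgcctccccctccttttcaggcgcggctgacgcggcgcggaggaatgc

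The Itga3 window held GGGCGG 3 times and CCGGAAG 1 time, the Itgb1 window GGGCGG 1 time, and the Itgb6 window none of the 4 motifs. Among the 8 members with a window in the RefSeq table, GGGCGG was also in that of Itgb5, 3 times, and the windows of Itga1, Itga2, Itgav and Itgb8 held none of the 4. Over all 32851 windows of this length, 32.7% held GGGCGG, 6.91% CCGGAAG, 6.75% TGANTCA and 12.4% TATAAA. A match says only that these letters are present. Itga6 and Itgb4 had no entry. Itga3 and Itgb6 each had 2 windows, and the one nearest to the start of the gene was used. Of the Itga3 window 130 bases, and of the Itgav window all 250, lie inside the gene bounds given here, since the table's transcript start is downstream of the bound.

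The integrin subunits were mostly higher in the tumour-bearing library, by less than 2-fold, around a level of Itgb1 that was the same in both. Itga6 had the largest ratio of the members with more than 10 reads, followed by Itga1, Itga3, Itgb5, Itgb6 and Itgb4, and Itgav had a ratio below 1. Of the 8 members that reached 1 RPKM in either library, 1 (Itga6) was 2-fold or more higher on the log2(RPKM + 1) scale, against 9.38% of 12288 genes, and 0 were 2-fold or more lower, against 6.53%. These counts are near those of all genes. The log2 ratio, tumour-bearing over control, was above 0 for 7 of 8 members, against 53.8% of all genes. Itgb1 was above 0 by 0.0039 only and was below 0 under 4 other scalings, which leaves 6 of 8. Its median was 0.63 over the members and 0.06 over all genes. The counting interval of the ratio lay wholly above 1 for 6 of 8 members and wholly below 1 for 0, against 33.1% and 26.4% of all genes, shares that depend on how many reads a gene has. Itga2 did not pass the filter at 1 RPKM, and Itgb8 had no value.

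**Figure D1:**
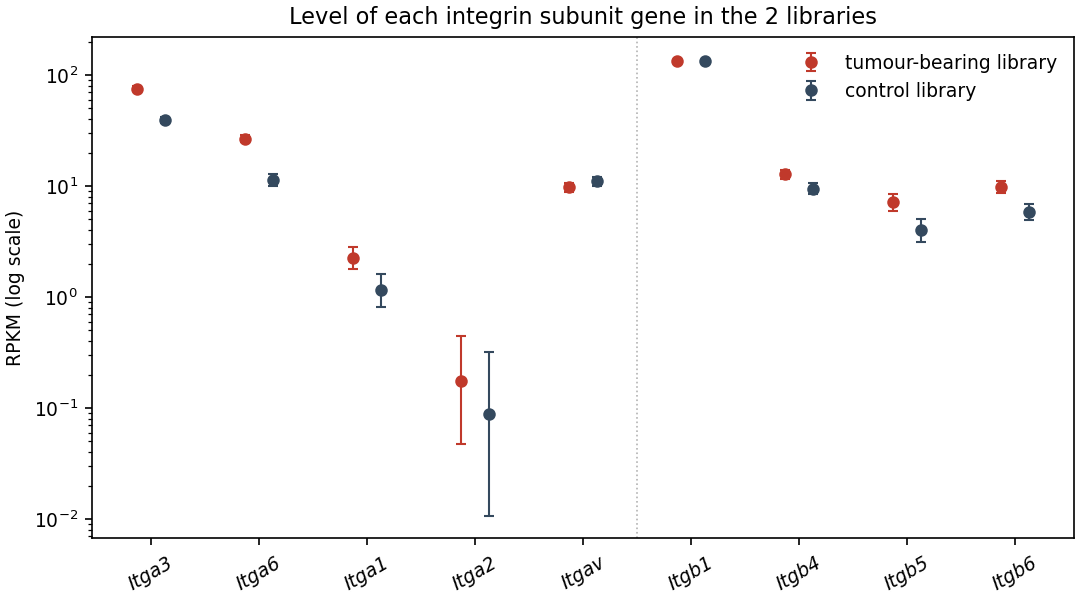
RPKM on a log axis for the 9 integrin subunit genes with a value, alpha subunits left and beta subunits right of the dotted line, in the tumour-bearing library (red) and the control library (dark), with 95% counting intervals as bars. Itgb1 sits at 133 RPKM in both libraries, and Itga3 and Itga6 sit higher in the tumour-bearing library.

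Among the members, Itga3 and Itga6 encode the alpha subunits that bind laminin. Itga3 (GeneID 16400, chromosome 11, 95044475 to 95076844 on mm10), which pairs with beta1, was at 75.4 RPKM in the tumour-bearing library and 39.6 RPKM in the control library, from 1979 and 1029 reads. The ratio was 1.90, with an interval of 1.77 to 2.06, so the difference was larger than counting error and its upper end reached just past 2-fold. Itga6 (GeneID 16403, chromosome 2, 71786886 to 71858427), which pairs with beta1 or with beta4, was at 26.8 RPKM in the tumour-bearing library and 11.3 RPKM in the control library, from 607 and 253 reads. The ratio of 2.38 (2.05 to 2.76) was wholly past 2-fold on read numbers. The ratio of Itga3 to Itga6 within a library was 2.82 (2.57 to 3.09) in the tumour-bearing library and 3.51 (3.06 to 4.05) in the control library. Summed, the laminin-binding alpha members were at 102 RPKM in the tumour-bearing library and 50.9 RPKM in the control library. AT1 markers were higher in the same library, all 12 with a log2 ratio above 0, against 53.8% of all genes, and a median of 1.09. Endothelial markers had a median of 1.78, with 10 of 12 above 0 and 2 below. Fibroblast markers had a median of 3.08, with all 9 tested genes above 0. The part of these cells in the Itga3 and Itga6 values was not tested.

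Of the members, Itga1 and Itga2 encode the collagen-binding alpha subunits, which pair with beta1. Itga1 (GeneID 109700, chromosome 13, 114958079 to 115101964) was at 2.26 RPKM in the tumour-bearing library and 1.16 RPKM in the control library, from 73 and 37 reads. Its ratio of 1.95 had a wide interval, 1.3 to 2.99, because of the few reads. Itga1 is also made by fibroblasts, smooth muscle and endothelial cells, and the summed levels of their markers were higher in the same library. The part of those cells in the Itga1 value was not tested. Itga2 (GeneID 16398, chromosome 13, 114833081 to 114932100) had 4 reads in the tumour-bearing library and 2 in the control library, 0.175 and 0.0885 RPKM. The ratio of 1.98 had an interval of 0.284 to 21.9, and a difference was not detectable at this depth.

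Itgav encodes alphaV, a subunit shared by several of the receptors that recognise the RGD motif of matrix proteins or of latent TGF-beta. Itgav (GeneID 16410, chromosome 2, 83722303 to 83806917) was at 9.71 RPKM in the tumour-bearing library and 11.0 RPKM in the control library, from 369 and 414 reads. The ratio of 0.883 had an interval of 0.765 to 1.02, which included 1.

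**Figure D2:**
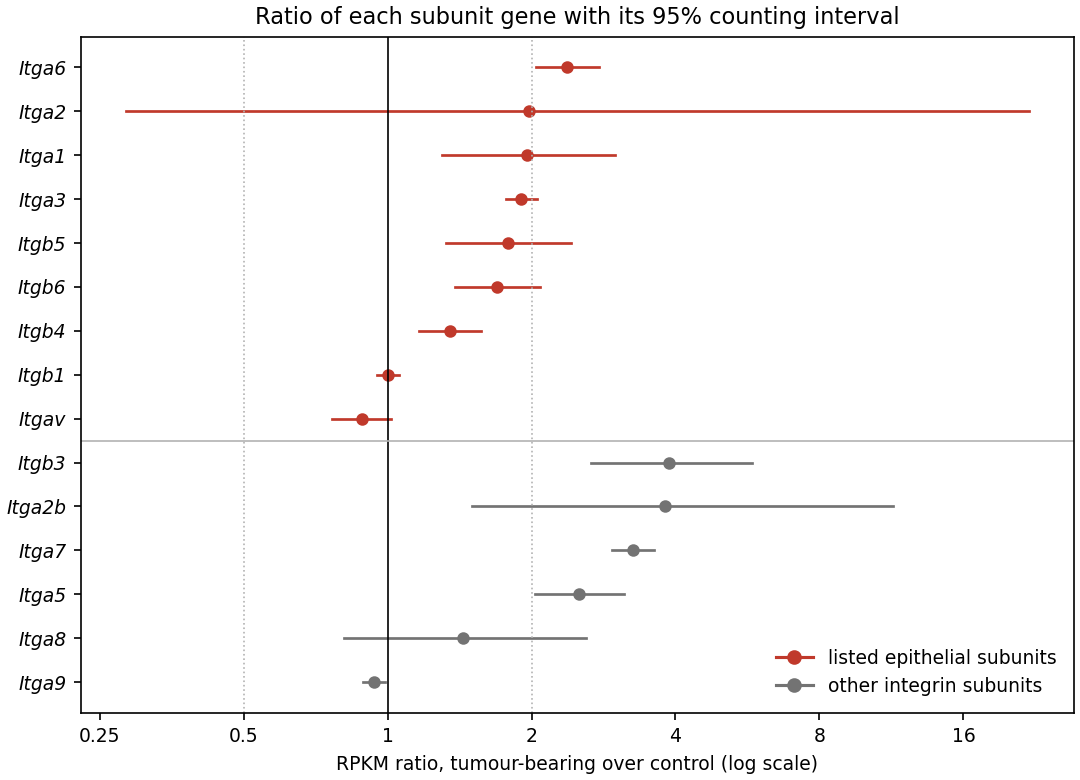
Ratio of RPKM, tumour-bearing over control, on a log axis, with 95% counting intervals as lines, for the 9 members with a value (red, above) and the 6 other integrin subunits that reached 1 RPKM in either library (grey, below). The solid line marks a ratio of 1 and the dotted lines 2-fold; Itga6 is the member whose interval lies wholly past 2-fold, and the interval of Itga2 spans both.

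Itgb1 encodes beta1, the common partner of the collagen- and laminin-binding alpha subunits. Itgb1 (GeneID 16412, chromosome 8, 128685654 to 128733579) had the highest level of the members, 133 RPKM in each of the libraries, from 3005 reads in the tumour-bearing library and 2968 reads in the control library. The ratio of 1.00 had an interval of 0.953 to 1.06. Relative to Itgb1 the laminin-binding partners were thus more abundant in the tumour-bearing library. The ratio of Itgb1 to Itga3 was 1.76 (1.67 to 1.87) in the tumour-bearing library and 3.35 (3.12 to 3.60) in the control library. The ratio of Itgb1 to Itga6 was 4.96 (4.55 to 5.42) in the tumour-bearing library and 11.8 (10.3 to 13.4) in the control library. These are ratios within a library per length, so the scaling between libraries does not enter them.

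Itgb4 encodes beta4, which pairs with alpha6 alone and joins hemidesmosomes, the plaques that tie the keratin skeleton to laminin. Itgb4 (GeneID 192897, chromosome 11, 115974725 to 116008412) was at 12.7 RPKM in the tumour-bearing library and 9.43 RPKM in the control library, from 423 and 310 reads. Its ratio of 1.35 had an interval of 1.16 to 1.57. Its partner Itga6 had the larger ratio, and Itga6 over Itgb4 was 2.10 (1.85 to 2.39) in the tumour-bearing library and 1.20 (1.01 to 1.42) in the control library. Transcript of Itga6 thus lay nearer to that of Itgb4 in the control library.

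Itgb5, Itgb6 and Itgb8 encode partners of alphaV. Itgb5 (GeneID 16419, chromosome 16, 33829665 to 33949338), the beta subunit of a vitronectin receptor, was at 7.19 RPKM in the tumour-bearing library and 4.03 RPKM in the control library, from 128 and 71 reads, a ratio of 1.79 (1.33 to 2.42). Itgb6 (GeneID 16420, chromosome 2, 60598292 to 60722603), an epithelial subunit whose receptor with alphaV activates latent TGF-beta, was at 9.86 RPKM in the tumour-bearing library and 5.82 RPKM in the control library, from 260 and 152 reads, a ratio of 1.69 (1.38 to 2.08). Both were higher beyond counting error, while their common partner Itgav was not. Itgav over Itgb6 was 0.985 (0.838 to 1.16) in the tumour-bearing library and 1.89 (1.57 to 2.29) in the control library. Itgav over Itgb5 was 1.35 (1.10 to 1.66) in the tumour-bearing library and 2.73 (2.12 to 3.56) in the control library. The ratio of Itgb6 to Itgb5 was 1.37 (1.11 to 1.71) in the tumour-bearing library and 1.45 (1.08 to 1.94) in the control library, with overlapping intervals. Itgb8 (GeneID 320910, chromosome 12, 119162803 to 119238276), another beta subunit known to activate latent TGF-beta, had no row in either table. If that stands for 0 reads, the limit that a count of 0 allows is about 3 reads. Over its longest coding transcript in GENCODE M21, that limit is 0.0663 RPKM in the tumour-bearing library and 0.0669 RPKM in the control library. The length counted for Itgb8 is not known, and a shorter one would raise this limit. Itgb8 therefore could not be ranked against Itga2, which had 4 reads in the tumour-bearing library and 2 in the control library.

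The order of the levels per length was Itgb1, Itga3, Itga6, Itgb4, Itgb6, Itgav, Itgb5, Itga1 and Itga2 in the tumour-bearing library. It was Itgb1, Itga3, Itga6, Itgav, Itgb4, Itgb6, Itgb5, Itga1 and Itga2 in the control library. The neighbours Itgb6 and Itgav in the tumour-bearing library did not differ beyond counting error (ratio 1.02, 0.863 to 1.19), and neither did Itga6 and Itgav in the control library (1.03, 0.873 to 1.20). All other neighbours in either order did. By rank among all genes, Itgb1 stood at 429 of 14283 in the tumour-bearing library and 399 of 13932 in the control library, Itga3 at 808 and 1529, and Itga6 at 2519 and 5027.

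**Figure D3:**
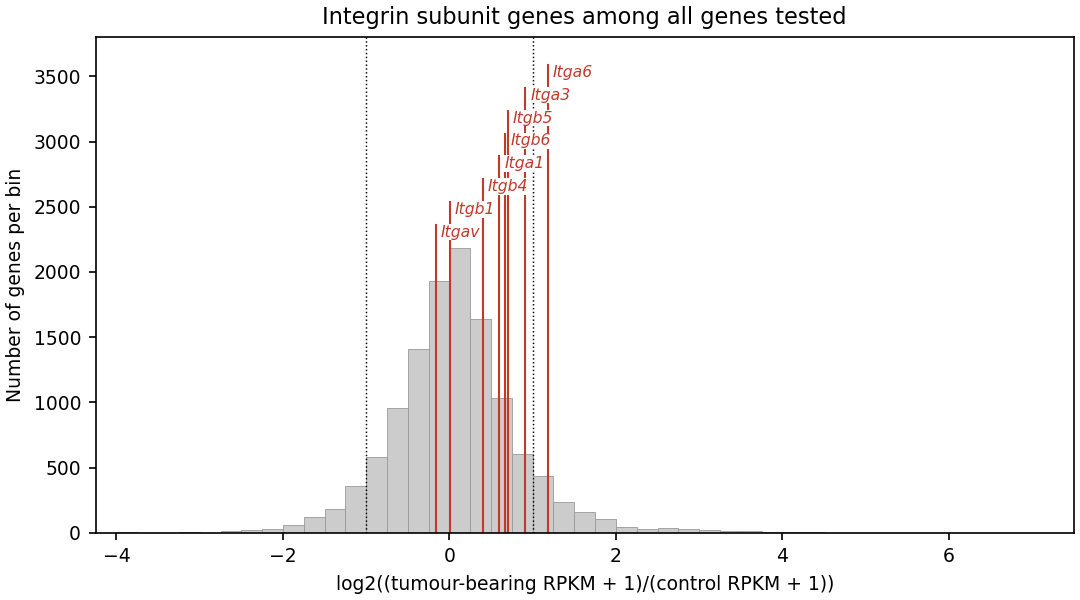
Number of genes (y axis) per bin of the log2 ratio of RPKM + 1, tumour-bearing over control (x axis), over 12288 genes as grey bars, with the 8 members tested as red lines whose height carries no value and 2-fold as dotted lines. Most members lie right of the peak of all genes, and Itga6 alone lies past the 2-fold line.

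The listed members were not the whole integrin repertoire of these cells. Of 17 other integrin subunit genes, 14 had a row in either table and 6 reached 1 RPKM. Of those 6, 3 were higher by 2-fold or more, against 9.38% of all genes, and 0 lower by that size, against 6.53%. Their median log2 ratio was 0.97, against 0.06 over all genes. Itga9, whose receptor with beta1 binds tenascin and other matrix proteins, was the most abundant alpha subunit of the control library, at 69.5 RPKM in the tumour-bearing library and 74.2 RPKM in the control library, a ratio of 0.936 (0.887 to 0.988). Itga7, another laminin-binding partner of beta1 best known in muscle, was at 77.7 RPKM in the tumour-bearing library and 23.8 RPKM in the control library, from 1689 and 513 reads, a ratio of 3.26 (2.95 to 3.61). In the tumour-bearing library its level was close to that of Itga3. The smooth muscle markers Myh11 and Acta2 had 16 and 3 reads in the tumour-bearing library and 0 reads each in the control library, and their part in the Itga7 value was not tested.

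Itga5, the alpha subunit of the fibronectin receptor, was at 13.3 RPKM in the tumour-bearing library and 5.29 RPKM in the control library, a ratio of 2.52 (2.04 to 3.12). Itgb3, a partner of alphaV in endothelial cells and platelets, was at 4.39 RPKM in the tumour-bearing library and 1.13 RPKM in the control library, a ratio of 3.88 (2.66 to 5.79). Itga2b, its platelet partner, had 23 reads in the tumour-bearing library and 6 in the control library. These 3 were higher together with fibroblast and endothelial markers, whose part was not tested. Itga8, the nephronectin receptor subunit of stromal cells, had 32 and 22 reads, a ratio of 1.44 (0.811 to 2.60). The leukocyte subunits were near 0: Itgb2 had 0 reads in the tumour-bearing library and 4 in the control library, Itgal 9 and 12, and Itgax 5 and 0, and Itgam, Itgad and Itgb7 had no row. Itgae, which pairs with beta7 on lymphocytes of epithelia, had 2 reads in the tumour-bearing library and 14 in the control library, and Itga4 had 12 and 30.

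Summed over all 18 alpha subunit genes looked for, alpha transcript was at 279 RPKM in the tumour-bearing library and 170 RPKM in the control library, a ratio of 1.64, while the 9 beta subunit genes summed to 167 and 153 RPKM, a ratio of 1.09. Itgb1 made up 79.5% of the beta sum in the tumour-bearing library and 86.5% in the control library. Within the alpha sum, Itga3 made up 27.1% in the tumour-bearing library and 23.3% in the control library, Itga6 9.62% and 6.64%, and Itgav 3.48% and 6.48%. Itga7 made up 27.9% in the tumour-bearing library and 14% in the control library, and Itga9 25% and 43.7%. The alpha sum of the 5 members alone was 114 RPKM in the tumour-bearing library and 63.1 RPKM in the control library, and the beta sum of the members 163 and 152 RPKM.

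**Figure D4:**
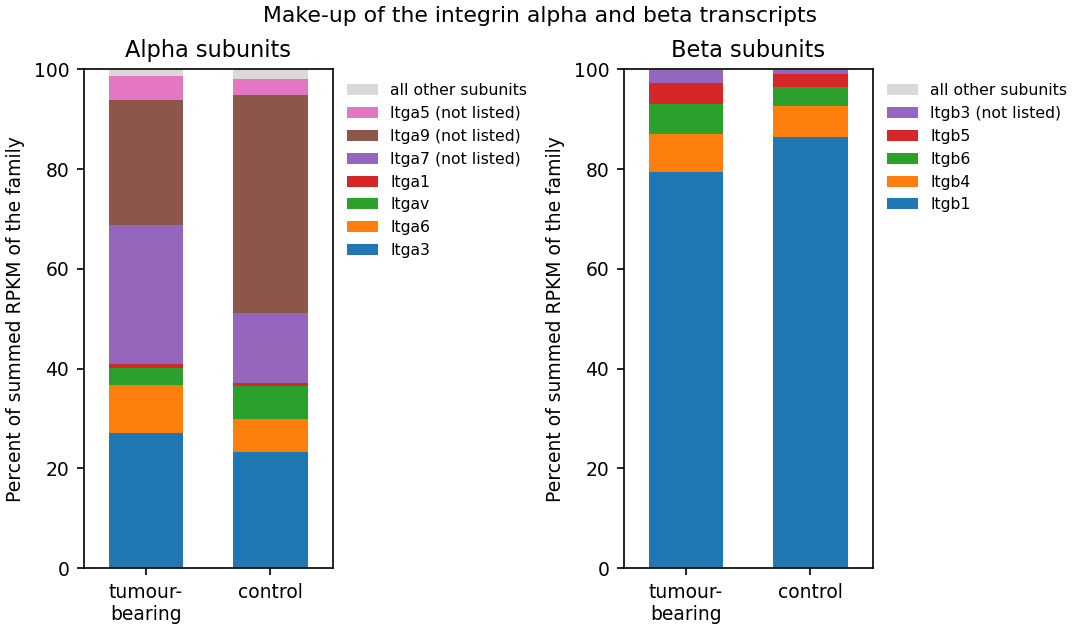
Percent of each main subunit gene (the rest pooled as all other subunits) in the summed RPKM of all alpha subunits (left) and all beta subunits (right), as stacked bars for the tumour-bearing and the control library. Itgb1 holds 79.5% of the beta sum in the tumour-bearing and 86.5% in the control library, and Itga9 holds 25% of the alpha sum in the tumour-bearing and 43.7% in the control library.

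Of 20 genes tested for adaptors that bind beta tails and build adhesions, 3 were higher by 2-fold or more and 0 lower by that size, 14 had a log2 ratio above 0 and 6 below 0, and the median was 0.36. Over all genes, 9.38% were higher by 2-fold or more, 6.53% were lower by that size and 53.8% were above 0. These shares apply to this and the following lists. Tln1, encoding the talin that switches integrins on, was at 37.9 RPKM in the tumour-bearing library and 33.6 RPKM in the control library, a ratio of 1.13 (1.05 to 1.21), and Fermt2, a kindlin that acts with talin, at 52.7 and 42.9 RPKM. Lims2 and Lims1, which encode the PINCH proteins that bind integrin-linked kinase, had ratios of 4.22 (2.54 to 7.37) and 2.15 (1.76 to 2.63). These are plain RPKM ratios. On the log2(RPKM + 1) scale Lims1 was at 0.99 and not one of the 3, which were Lims2, Tns1 and a gene below 5 RPKM. Tns1, a tensin that links beta tails to actin, was at 136 RPKM in the tumour-bearing library and 52.8 RPKM in the control library, a ratio of 2.58 (2.47 to 2.70). Actn1, an actin cross-linker, had a ratio of 1.89 (1.75 to 2.04). Kinases and scaffolds of adhesion signalling were all within 2-fold, 13 of 13, with a median of -0.04, and Ptk2, the focal adhesion kinase, was at 19.4 and 22.4 RPKM. In that list Arhgef6, a Rac exchange factor, had a ratio of 0.625 (0.502 to 0.775), and Git1, Crkl and Crk had ratios of 1.45, 1.46 and 1.43. Inhibitors and traffic factors of integrins were also all within 2-fold, 10 of 10, with a median of 0.16. Kank2, which binds talin and lowers its pull on actin, had a ratio of 1.80 (1.67 to 1.95), Sharpin, an inhibitor that binds alpha tails, 1.71 (1.31 to 2.25), and Snx17 and Numb, of integrin traffic, 1.5 and 1.46.

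Membrane and hemidesmosome partners had 12 of 13 log2 ratios above 0, against 53.8% of all genes, and a median of 0.30. At 2-fold, 1 of the 13 was higher, near the 9.38% of all genes, and 0 were lower. Cd151, the tetraspanin that binds alpha3beta1 and alpha6beta4 directly, was at 70.2 RPKM in the tumour-bearing library and 43.3 RPKM in the control library, a ratio of 1.62 (1.44 to 1.83). The hemidesmosome genes did not share 1 ratio. Plec, the plectin that couples beta4 to keratin, had a ratio of 1.24 (1.14 to 1.34), Col17a1, a hemidesmosomal collagen, 1.82 (1.36 to 2.45), and Dst, which encodes the BP230 plakin and has forms outside epithelia, 0.575 (0.527 to 0.627). Cav1, a caveolin, and Emp2, a membrane protein reported to act on integrins, had ratios of 2.24 (2 to 2.5) and 1.76 (1.68 to 1.83), and both are also AT1 markers.

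Ligands of the laminin and nephronectin type were higher for 4 of 15 genes by at least 2-fold and lower for 0, with a median log2 ratio of 0.73. Npnt, encoding nephronectin, a basement membrane protein bound by alpha8beta1, was at 205 RPKM in the tumour-bearing library and 42.0 RPKM in the control library, a ratio of 4.89 (4.54 to 5.27), while its receptor subunit Itga8 had the few reads given above. Lamb3 and Lama3 encode laminin chains of epithelial basement membranes. Lamb3 had a ratio of 1.44 (1.35 to 1.52), and Lama3 one of 0.831 (0.741 to 0.932). Lama5, the alpha chain of the other main epithelial laminin, had a ratio of 1.73 (1.63 to 1.84). Lamb1, a beta chain made by many cell types, was at 5.27 RPKM in the tumour-bearing library and 1.23 RPKM in the control library. Col4a3, a collagen IV chain of the alveolar basement membrane, had a ratio of 2.65 (2.42 to 2.91).

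Among the lists of integrin-related genes, interstitial and RGD ligands had the highest median, with 9 of 11 higher by 2-fold or more, 1 lower by that size and a median of 2.29. Fn1, fibronectin, was at 50.5 RPKM in the tumour-bearing library and 2.43 RPKM in the control library. Spp1, osteopontin, had 90 reads in the tumour-bearing library and 0 in the control library. With 3 reads per library as the floor, that is at least 29.7-fold higher, and the exact interval of the ratio, which also holds the counting error of the 90 reads, starts at 23.7. Col1a2, Col3a1 and Col1a1 of this list are also fibroblast markers, whose median was 3.08 over 9 tested genes. The exception was Thbs1, thrombospondin, named after its value was seen, at 47.9 RPKM in the tumour-bearing library and 129 RPKM in the control library. Of the cargo of alphaVbeta6, Tgfb1 was at 20.1 RPKM in the tumour-bearing library and 13 RPKM in the control library, a ratio of 1.55 (1.25 to 1.92), and Tgfb3 at 4.97 and 5.29 RPKM, a ratio of 0.939 (0.697 to 1.26). Ltbp3, which tethers the latent complex, was at 76 RPKM in the tumour-bearing library and 74.3 RPKM in the control library. All 5 tested genes of latent TGF-beta and its presenters were within 2-fold on the log2(RPKM + 1) scale, with a median of 0.28. On plain RPKM, Lrrc32, 1 of the 5, had a ratio of 2.59 (1.54 to 4.52), from 55 and 21 reads. Ltbp1, of the same list, did not reach 1 RPKM, with 34 reads in the tumour-bearing library and 4 in the control library.

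**Figure D5:**
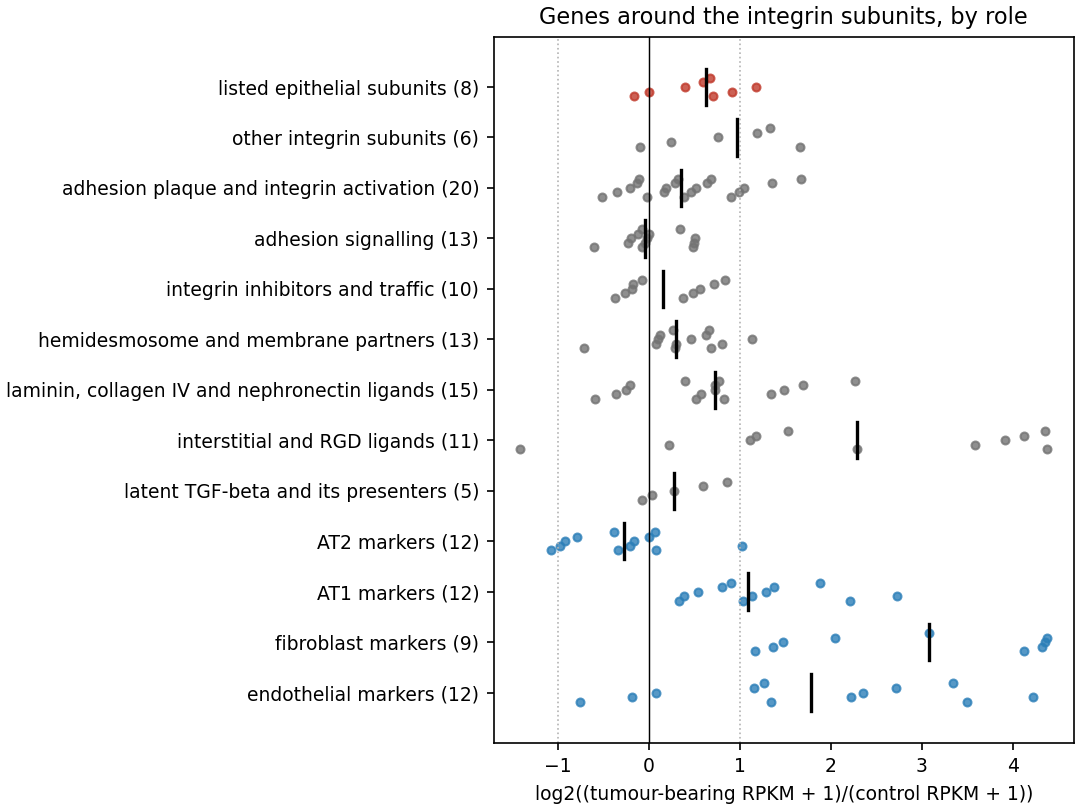
Log2 ratio of RPKM + 1, tumour-bearing over control, of single genes (points) by role, with the median of each list as a black bar and the number of genes tested in brackets; the listed members are red, other integrin-related lists grey and marker lists blue, and dotted lines mark 2-fold. The members have a median of 0.63, between those of AT2 markers at -0.27 and fibroblast markers at 3.08.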

How the data were processed

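RNA from 2 libraries, 1 per group, was measured by sequencing. Polyadenylated RNA was enriched on oligo(dT) and copied from random primers, per the labels' protocols. Reads were trimmed with Trimmomatic and the build was mm10, per the submitters' processing notes. The sources used here do not give the aligner, counting tool, annotation or strand setting. The authors deposited RPKM per gene, per the file headers. RPKM depends on the library total, so abundant genes such as Sftpc lower the rest.

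Values were used as deposited, and a missing row was taken as 0. Whole reads were recovered for 99.8% of 15113 genes. They summed to 80.0% of the estimated total in the tumour-bearing library and 75.6% in the control library. Some of the most abundant genes, Sftpc among them, had no recovered reads. The totals were the whole numbers that most low rows shared when combined with GENCODE M21 transcript lengths, and gene lengths were those that made the reads of both libraries whole, with the descending row order settling multiples. The totals are estimates and not values stated by the authors. Reads were 10 or fewer for Itga2 only. The recovered lengths of Itgav and Itgb4 equalled a GENCODE M21 transcript, and those of the other 7 members did not.

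Genes that reached 1 RPKM in either library were compared by the log2 ratio of RPKM + 1, tumour-bearing over control, with a size rule of 2-fold. This scale understates the change of low genes. Folds printed are plain RPKM ratios, and their 95% intervals are exact binomial ones (Clopper-Pearson) given the summed reads. Reads are not independent molecules, so intervals and floors cover counting error only. Exons of Itga1 overlap Gm49395 on the same strand, and those of Itgav and Itgb4 overlap Gm13684 and B230344G16Rik on the opposite strand. None of these 3 has a row, and how shared reads were assigned is not known.

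Members and lists were chosen with earlier results of these data known. All 10 members and all other integrin subunits could be named, and from each other list up to 4 genes that reached 5 RPKM and had the largest absolute log2 ratio, with direct binding partners. Some genes that this rule names are not reported here. Gene positions are from RefSeq on GRCm38, the assembly mm10 denotes. The scripts (Python 3.11.15, scipy 1.17.1) were tested on simulated data.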

Additional observations from a re-analysis of the deposited data

How the results depend on the processing

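Over 11 alternatives, the number of members at least 2-fold lower was 0 throughout, and Itga6 was the member at least 2-fold higher in all but the following. With a pseudocount of 5 the number higher was 0 and the median of the members was 0.37, by construction of that scale. At a threshold of 1.5-fold it was 5 (Itga1, Itga3, Itga6, Itgb5 and Itgb6), and at 4-fold it was 0. The background moved as well: 19.4% of genes were at least 1.5-fold and 1.66% at least 4-fold higher. Under the other settings (pseudocount of 0.1, no filter, filter at 5 RPKM, trimmed-mean and upper-quartile scaling, the sum without Sftpc, centring, recovered reads) the median lay between 0.55 and 0.80, and the median of all genes, before centring, between -0.04 and 0.08. The sign of Itgb1 followed the scaling: 6 members instead of 7 were above 0 with trimmed-mean and upper-quartile scaling, without Sftpc and when centred. Itgb1 was at -0.10 with upper-quartile scaling, where Itga3 was at 0.81. Of 72 values of single members, 67 stayed inside their counting interval and 5 moved outside it, and no sign other than that of Itgb1 differed. The settings with no filter and with a filter at 5 RPKM leave a member's value unchanged by construction. Their values are among the 67, so that number overstates how many could have moved. The only value of Itga2 is of this kind. Depth limits Itga2, with 4 and 2 reads, and Itgb8. No paired analysis was possible because each group has 1 library.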

Other observations

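Genes known to respond to TGF-beta, the growth factor that alphaVbeta6 releases, were divided between the libraries. Of 10 genes tested, 3 were higher by 2-fold or more in the tumour-bearing library, 0 were lower by that size, 6 had a log2 ratio above 0 and 4 below 0, with a median of 0.25. Pmepa1, a feedback inhibitor, was at 21.4 RPKM in the tumour-bearing library and 8.40 RPKM in the control library, and Ccn2, a matricellular protein gene, at 67.7 and 13 RPKM. The feedback genes Smad7 and Skil and the matrix gene Tgfbi, named after their values were seen, had ratios below 1, at 0.692 (0.576 to 0.830), 0.636 (0.561 to 0.721) and 0.617 (0.5 to 0.761). Fibroblast markers were higher in the same library, and their part was not tested.

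Among basal cell markers, whose cells are known for abundant alpha6beta4, Krt5 had a ratio of 1.17 (0.960 to 1.44) and Trp63 had 40 reads in the tumour-bearing library and 69 in the control library, a ratio of 0.574 (0.379 to 0.860). Krt14 had 75 reads in the tumour-bearing library and 2 in the control library, and Krt15 had 111 and 197. Itga2b is itself counted among the platelet markers, so it is not separate from their sum. Other platelet markers, beside which Itgb3 and Itga2b were higher, had few reads. Pf4 had 8 reads in the tumour-bearing library and 2 in the control library, Ppbp 7 and 0, and Gp5 0 and 8.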
